A study of Mus musculus with 4 samples.

Results

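The genes described here encode carriers of amino acids, small peptides and amino acid derivatives, chosen by family name. They are every gene on the array whose symbol is Slc1a, Slc3a, Slc6a, Slc7a, Slc15a, Slc36a, Slc38a or Slc43a followed by a member number. The rule found 48 of the 12393 genes with a named probe set, from 7 of the 8 families, since the named probe sets held no Slc36a gene. Slc6a19, the main neutral amino acid carrier of the brush border, was likewise not among the named probe sets and was not analysed here. Of the 48 genes, 23 were measured, which means that the mean scaled signal over the 4 arrays reached a floor of 100, and 8036 of all 12393 genes met the same limit.

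The study compared 2 inbred mouse strains, A/J and C57BL/6J, on 2 diets. The 4 groups were A/J fed high-fat, A/J fed low-fat, C57BL/6J fed high-fat and C57BL/6J fed low-fat, all male, aged 10 weeks and fed the diet for 2 weeks. Each group had 6 mice, and RNA of the intestinal mucosa from 2 of them, picked for a middling weight, went as a pool onto a single Affymetrix Mouse Expression Array 430A. No group therefore has a replicate array, the spread between mice is not in the data, and the labels do not say which stretch of the intestine was taken. A signal is a probe set's brightness on a linear scale, and each gene is represented by its brightest probe set.

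Dietary protein reaches the intestinal epithelium as free amino acids and as peptides of a few residues. Carriers in the brush border take these up, some of them driven by sodium or proton gradients, and exchangers and facilitated carriers in the basolateral membrane pass amino acids on to the blood. Several Slc7a light chains reach the membrane only when bound to a heavy chain of the Slc3a family. Other members of these families carry neurotransmitters, creatine or taurine rather than amino acids for nutrition.

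The arrays differed little in how much they detected, with between 58.6% and 60.3% of probe sets at or above the floor. The deposited signals were scaled by factors between 2.72 and 3.41. Summed signals of 10 enterocyte markers were 166920 and 178701 in A/J mucosa on the high-fat and low-fat diets, against 182783 and 177663 in C57BL/6J mucosa. Limma called none of the 10 for strain or diet, and the median strain effect was -0.05. Cdx2 had the largest strain effect of the 10, with 2863 and 2981 in A/J mice, against 1698 and 2100 in C57BL/6J mice (limma adjusted p = 0.0773). The ileal genes Slc10a2 and Fabp6 were under the floor on all 4 arrays. Exocrine pancreas markers stood apart on 1 array, with summed signals of 2753 in A/J mice on the high-fat diet and 105290 in A/J mice on the low-fat diet, against 171498 and 108482 in C57BL/6J mice. The 18S ribosomal RNA control probe set at the 5′ end read 84.4 and 218 in A/J mice on the high-fat and low-fat diets, against 1675 and 11010 in C57BL/6J mice, so the C57BL/6J low-fat array was highest. The part of these differences in the transporter results was not tested.

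Strain separated a small number of the carriers. In limma's additive fit of strain and diet, with adjusted p-values over all 8036 measured genes, 3 of the 23 measured carriers were higher in A/J mice, and 3.83% of all measured genes were called in that direction. The 3 genes were Slc6a20a, Slc6a4 and Slc7a8. A single carrier, Slc15a1, was lower in A/J mice, where 3.68% of all measured genes were called. The fit leaves 1 residual degree of freedom per gene, which holds array noise and any unequal diet response of the strains together. Each of these calls was lost whenever 1 array was left out, since no gene of the 8036 then passed for strain.

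Slc6a20a encodes a sodium-dependent brush border carrier of proline and other imino acids. Its scaled signal was 4728 and 4374 in A/J mice on the high-fat and low-fat diets, against 1475 and 665 in C57BL/6J mice. Both A/J arrays lay above both C57BL/6J arrays, and the low-fat C57BL/6J array was the lowest of the 4. A/J signal was 3.21 times C57BL/6J signal on the high-fat diet and 6.58 times on the low-fat diet, and the limma strain effect was 2.20 ± 0.245 on the log2 scale (SE, adjusted p = 0.000157). With the C57BL/6J low-fat array left out, which also had the highest 18S signal, the strain effect in a fit of strain alone was 1.62. In the 10 settings that kept all arrays, the gene was called in 8, with limma adjusted p between 7.54e-09 and 0.49. Slc6a20b, its paralog, was under the floor on all 4 arrays. In bulk mucosa, fewer cells that express a gene and less of its RNA in each cell cannot be told apart, here and in every result that follows.

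Slc6a4 encodes the serotonin transporter, with which enterocytes clear serotonin released by enteroendocrine cells. Its scaled signal was 1740 and 1683 in A/J mice on the high-fat and low-fat diets, against 569 and 636 in C57BL/6J mice. The strains did not overlap, and within each strain the diets lay close together. A/J signal was 3.06 times C57BL/6J signal on the high-fat diet and 2.65 times on the low-fat diet, and the limma strain effect was 1.51 ± 0.197 on the log2 scale (SE, adjusted p = 0.000471). None of 12 measured enteroendocrine markers was called for strain in limma, and their summed signals were 12969 and 14133 in A/J mice, against 11554 and 14115 in C57BL/6J mice.

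Slc7a8 encodes a light chain that pairs with Slc3a2 and exchanges neutral amino acids across the basolateral membrane. Its scaled signal was 380 and 711 in A/J mice on the high-fat and low-fat diets, against 210 and 333 in C57BL/6J mice. Both A/J arrays lay above both C57BL/6J arrays, although A/J mice on the high-fat diet were only slightly above C57BL/6J mice on the low-fat diet. A/J signal was 1.81 times C57BL/6J signal on the high-fat diet and 2.13 times on the low-fat diet, and the limma strain effect was 0.97 ± 0.197 on the log2 scale (SE, adjusted p = 0.00977). The call was lost in a fit of strain alone, and with 1 array left out of that fit the effect was 0.52 without A/J low-fat, 0.64 without C57BL/6J high-fat, 1.31 without C57BL/6J low-fat and 1.43 without A/J high-fat. Its heavy chain Slc3a2 had signals of 5301 and 6504 in A/J mice, against 5001 and 4276 in C57BL/6J mice, with a limma strain effect of 0.34 (adjusted p = 0.375).

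The promoters of these 3 genes are shown because all 3 were called higher in A/J mice. Each is a window of 300 bases, 250 before and 50 after the annotated start, from RefSeq on build GRCm38.p6, read 5′ to 3′ on the strand of the gene. The windows are chr9:123678783-123679082 on the minus strand for Slc6a20a, chr11:76998347-76998646 on the plus strand for Slc6a4, and chr14:54781837-54782136 on the minus strand for Slc7a8. Capitals mark GTTAAT, a half-site of the intestinal factor Hnf1, and it was chosen after the sequences had been seen.
Slc6a20a: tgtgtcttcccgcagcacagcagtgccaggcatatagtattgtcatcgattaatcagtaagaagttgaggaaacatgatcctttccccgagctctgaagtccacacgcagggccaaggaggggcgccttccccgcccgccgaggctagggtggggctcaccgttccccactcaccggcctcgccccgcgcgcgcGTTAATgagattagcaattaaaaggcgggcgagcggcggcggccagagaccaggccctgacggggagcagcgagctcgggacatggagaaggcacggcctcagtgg
Slc6a4: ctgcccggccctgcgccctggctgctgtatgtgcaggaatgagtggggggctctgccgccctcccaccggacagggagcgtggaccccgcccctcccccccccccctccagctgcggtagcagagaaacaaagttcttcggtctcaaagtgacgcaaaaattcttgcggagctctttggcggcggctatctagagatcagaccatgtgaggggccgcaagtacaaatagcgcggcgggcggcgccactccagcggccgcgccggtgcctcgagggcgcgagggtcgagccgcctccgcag
Slc7a8: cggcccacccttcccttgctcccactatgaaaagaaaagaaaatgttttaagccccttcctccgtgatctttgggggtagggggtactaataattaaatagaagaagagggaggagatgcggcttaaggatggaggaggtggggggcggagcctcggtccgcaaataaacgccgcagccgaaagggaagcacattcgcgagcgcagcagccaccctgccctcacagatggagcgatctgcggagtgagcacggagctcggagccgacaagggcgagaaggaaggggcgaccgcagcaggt
GTTAAT was found on either strand in 7.10% of 32851 promoters of this length, and among these 3 windows in that of Slc6a20a alone. The core of the amino acid response element bound by Atf4, TGATGNAA, was in none of the 3 windows and in 3.97% of all promoters. AGGTCA repeated directly with 1 base between the copies, which Hnf4a and Ppara bind, was in none of the 3 windows and in 0.0396% of all promoters. None of the 3 motifs contains another. Of the 23 measured carriers 15 had a promoter in the RefSeq table, with 23 windows in all, and TGATGNAA was found in 2 windows, both of Slc7a7. GTTAAT was in windows of Slc3a1, Slc6a20a and Slc7a7.

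**Figure D1:**
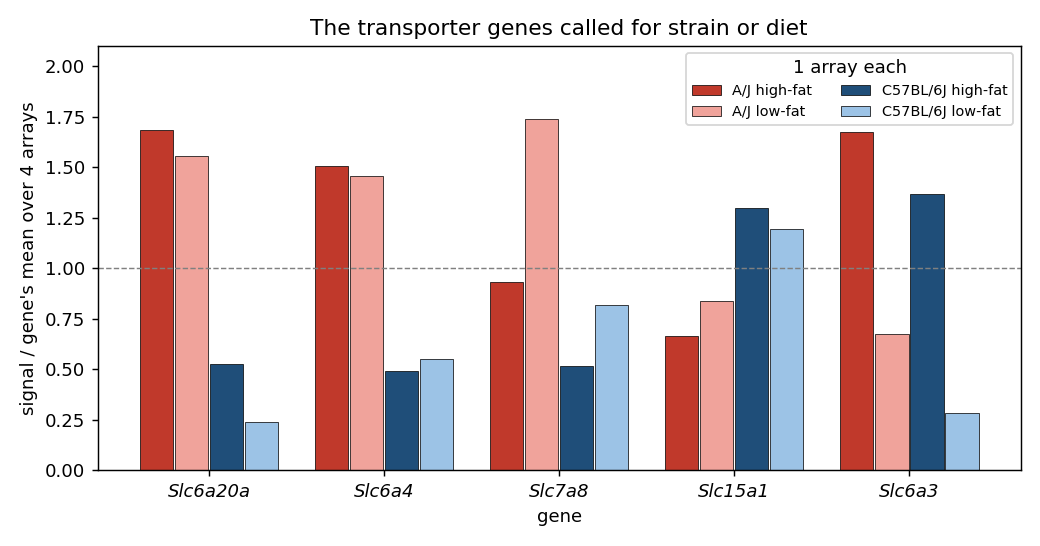
Signal of the 5 carrier genes called for strain or diet, each divided by the gene's own mean over the 4 arrays (bars start at 0, 1 array per bar, no error bar because there are no replicates). Slc6a20a and Slc6a4 are high on both A/J arrays, Slc15a1 is low on both, Slc6a3 is high on both high-fat arrays, and Slc7a8 is highest in A/J mice on the low-fat diet.

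Slc15a1 encodes the proton-coupled carrier that takes up peptides of a few residues at the brush border. Its scaled signal was 359 and 453 in A/J mice on the high-fat and low-fat diets, against 701 and 646 in C57BL/6J mice. Both A/J arrays lay below both C57BL/6J arrays. A/J signal was 1.95-fold lower on the high-fat diet and 1.43-fold lower on the low-fat diet, and the limma strain effect was -0.74 ± 0.205 on the log2 scale (SE, adjusted p = 0.0488). This call stands close to the threshold: it was kept in 2 of the 10 settings that used all arrays, with limma adjusted p between 0.0184 and 0.542 over the 10. Among the other peptide carriers, Slc15a4, a lysosomal carrier of histidine and peptides, had signals of 214 and 175 in A/J mice, against 179 and 144 in C57BL/6J mice. Slc15a3, also lysosomal, lay near the floor with 100 and 125 in A/J mice, against 122 and 114 in C57BL/6J mice. Neither was called in limma, with strain effects of 0.27 (adjusted p = 0.483) for Slc15a4 and -0.08 (adjusted p = 0.871) for Slc15a3.

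No other brush border carrier was called for strain. Slc7a9, the light chain of the carrier for cystine and dibasic amino acids, had signals of 9075 and 9808 in A/J mice on the high-fat and low-fat diets, against 7606 and 9376 in C57BL/6J mice. Slc3a1, its heavy chain, had 3166 and 3214 in A/J mice, against 3438 and 4075 in C57BL/6J mice. Mutations of either gene cause cystinuria in humans, and neither gene was called here, with limma strain effects of 0.16 (adjusted p = 0.707) for Slc7a9 and -0.23 (adjusted p = 0.566) for Slc3a1.

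Slc1a1, which carries glutamate and aspartate, had 281 and 194 in A/J mice, against 303 and 339 in C57BL/6J mice. A/J mice on the low-fat diet were lowest, 1.75-fold under C57BL/6J mice on that diet, and the limma strain effect of -0.46 was not called (adjusted p = 0.256). Its other probe sets did not all run the same way. A second had 308 and 179 in A/J mice, against 272 and 299 in C57BL/6J mice. The remaining probe set had 252 and 213 in A/J mice, against 219 and 206 in C57BL/6J mice, so A/J was higher on both diets. Slc1a5, a sodium-dependent exchanger of glutamine and other neutral amino acids, had 153 and 207 in A/J mice, against 212 and 249 in C57BL/6J mice. A/J was lower within both diets, with a limma strain effect of -0.37 (adjusted p = 0.308).

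At the basolateral side, Slc7a7 forms the exchanger of cationic for neutral amino acids together with Slc3a2. Its signals were 4342 and 3672 in A/J mice on the high-fat and low-fat diets, against 3899 and 3791 in C57BL/6J mice, and the strains overlapped. Slc38a2, a sodium-coupled carrier of small neutral amino acids, had 686 and 801 in A/J mice, against 909 and 900 in C57BL/6J mice. Slc38a1, a related carrier, had 552 and 552 in A/J mice, against 519 and 563 in C57BL/6J mice. Limma called neither strain nor diet for these 3 genes, and their strain effects were 0.05 for Slc7a7, -0.29 for Slc38a2 and 0.03 for Slc38a1 (adjusted p = 0.909, 0.448 and 0.954).

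Slc38a3, a sodium-coupled glutamine carrier, had signals of 233 and 280 in A/J mice, against 177 and 138 in C57BL/6J mice. Both A/J arrays lay above both C57BL/6J arrays, and A/J signal was 2.02 times C57BL/6J signal on the low-fat diet. The limma strain effect of 0.71 ± 0.214 missed the threshold (SE, adjusted p = 0.0671). Slc38a10 had 2968 and 2616 in A/J mice, against 2390 and 1634 in C57BL/6J mice, with a limma strain effect of 0.50 (adjusted p = 0.175). Its other probe sets did not all run the same way: the next brightest gave 2241 and 1035 in A/J mice, against 1810 and 1475 in C57BL/6J mice, so that the sign on the low-fat diet was turned.

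Carriers of creatine, taurine and glycine belong to the same family as Slc6a20a and Slc6a4. Slc6a8, the creatine transporter, had signals of 5306 and 6110 in A/J mice on the high-fat and low-fat diets, against 5413 and 5496 in C57BL/6J mice. Slc6a6, the taurine transporter, had 871 and 1087 in A/J mice, against 952 and 795 in C57BL/6J mice. Slc6a9, a glycine transporter, had 275 and 304 in A/J mice, against 289 and 262 in C57BL/6J mice. Of these 3, none was called in limma, and the strain effects lay between 0.06 and 0.16 on the log2 scale, as the plot of effects shows. A second Slc6a9 probe set differed from the first, with 291 and 269 in A/J mice, against 184 and 150 in C57BL/6J mice.

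The last measured carriers were Slc7a4, Slc6a17 and Slc43a3. Slc7a4 had signals of 669 and 683 in A/J mice, against 604 and 667 in C57BL/6J mice. A weaker Slc7a4 probe set differed more between the strains, with 183 and 179 in A/J mice, against 122 and 137 in C57BL/6J mice. Slc6a17, a vesicular carrier of neutral amino acids known from neurons, had 135 and 136 in A/J mice, against 143 and 193 in C57BL/6J mice. Slc43a3, known as a carrier of purine nucleobases, had 115 and 98.1 in A/J mice, against 121 and 135 in C57BL/6J mice, so 1 array was under the floor. Limma called none of these 3 for strain, with adjusted p of 0.847 for Slc7a4, 0.444 for Slc6a17 and 0.527 for Slc43a3.

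**Figure D2:**
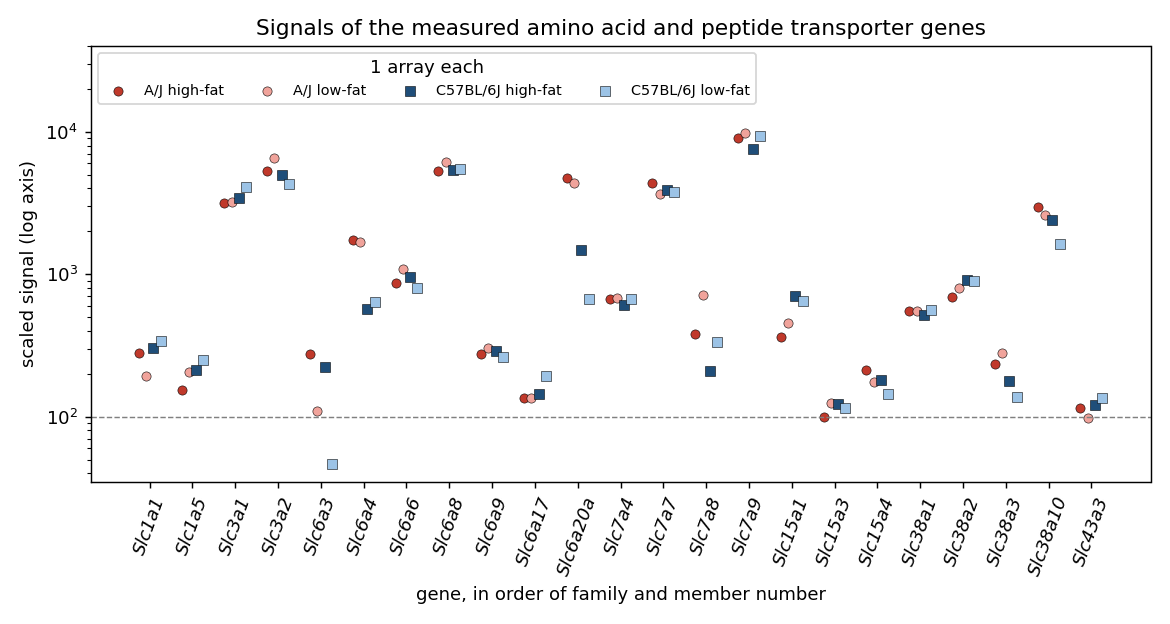
Scaled signal (log axis) of the 23 measured carrier genes on each of the 4 arrays, circles for A/J and squares for C57BL/6J, dark for high-fat and light for low-fat. The dashed line is the floor of 100. Levels of different genes come from different probes and cannot be compared with one another. Circles and squares separate most for Slc6a20a and Slc6a4, and the light points of Slc6a3 lie far below its dark ones.

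Limma called fewer carriers for diet than for strain. In that fit, 1 of the 23 measured carriers, Slc6a3, was higher on the high-fat diet, where 0.423% of all measured genes were called, and 0 were lower, where 0.187% of all measured genes were called. At an unadjusted p under 0.05 in limma, 2 carriers were higher on the high-fat diet, against 391 of all 8036 genes. At the same limit 1 carrier was lower, against 360 of all genes. Slc6a3 encodes the dopamine transporter, known from dopaminergic neurons. Its scaled signal was 275 in A/J mice on the high-fat diet and 110 in A/J mice on the low-fat diet, and 224 in C57BL/6J mice on the high-fat diet and 46.4 in C57BL/6J mice on the low-fat diet. Both high-fat arrays lay above both low-fat arrays, the lowest of which was under the floor.

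High-fat signal of Slc6a3 was 2.49 times low-fat signal in A/J mice and at least 2.24 times in C57BL/6J mice, and the limma diet effect was 1.24 ± 0.196 on floored log2 signals (SE, adjusted p = 0.0132). The effect lay between 0.31 (floor of 200) and 1.74 (floor of 50) over the settings with all arrays. The gene reached the filter on mean signal only through its high-fat arrays. A measured Slc6a3 therefore had to be higher on that diet, and its call is a description. Its call was kept in 2 of the 10 settings with all arrays, with limma adjusted p between 0.000958 and 0.9996, and in no fit with 1 array left out. Of 8 enteric neuron and glia markers, 6 were under the floor on all arrays, and the other 2 summed to 320 and 372 in A/J mice on the high-fat and low-fat diets, against 310 and 415 in C57BL/6J mice.

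Slc7a8 and Slc6a20a had the largest diet effects among the carriers that limma did not call for diet. Slc7a8 was 1.87-fold lower on the high-fat diet in A/J mice and 1.59-fold lower in C57BL/6J mice, with a limma diet effect of -0.78 ± 0.197 (SE, adjusted p = 0.15). In fits of diet alone with 1 array left out, that effect ranged between -1.33 (without C57BL/6J low-fat) and -0.24 (without A/J low-fat). Its highest signal was in A/J mice on the low-fat diet and its lowest in C57BL/6J mice on the high-fat diet, 3.38 times apart. Slc6a20a hardly differed by diet in A/J mice, at 1.08 times, while its high-fat signal was 2.22 times its low-fat signal in C57BL/6J mice. The limma diet effect was 0.63 ± 0.245 (SE, adjusted p = 0.424), and the difference between the strains' log2 diet ratios, -1.04, cannot be tested with 1 array per group.

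**Figure D3:**
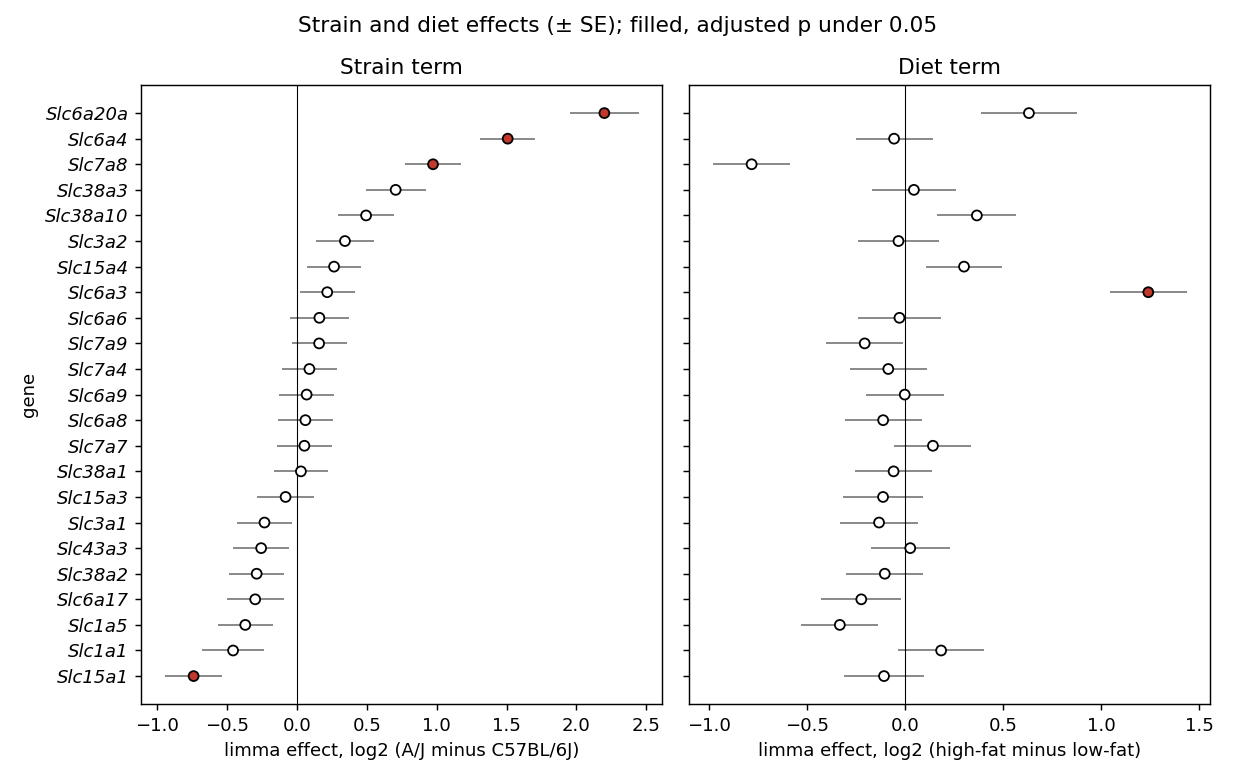
Limma strain effect (left, A/J minus C57BL/6J) and diet effect (right, high-fat minus low-fat) on the log2 scale for the 23 measured carriers, with SE as lines. Filled points have an adjusted p under 0.05: Slc6a20a, Slc6a4, Slc7a8 and Slc15a1 for strain, and Slc6a3 for diet.

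Ratios between single arrays place the carriers against all measured genes. Between A/J and C57BL/6J mice on the high-fat diet, 3 of the 23 carriers (Slc6a20a, Slc6a4 and Slc7a8) passed 1.5-fold upward in A/J, against 8.37% of all genes, and Slc15a1 alone was at least 1.5-fold lower, against 6.88%. On the low-fat diet, the count at 1.5-fold was 6 carriers higher in A/J, against 10.9% of all genes, and Slc1a1 alone was lower, against 9.23%. The 6 were the same 3 genes with Slc38a3, Slc38a10 and Slc3a2. At 2-fold, the carriers higher in A/J were Slc6a20a and Slc6a4 on the high-fat diet, against 1.93% of all genes, and these with Slc7a8 and Slc38a3 on the low-fat diet, against 3% of all genes. No carrier was 2-fold lower in A/J on the high-fat diet, where 2.38% of all genes were, or on the low-fat diet, where 2.64% were.

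Between the diets, A/J mice had 1 carrier at least 1.5-fold higher on the high-fat diet (Slc6a3, against 4.99% of all genes) and 1 lower (Slc7a8, against 4.70%). C57BL/6J mice had 2 higher (Slc6a20a and Slc6a3, against 5.13% of all genes) and 1 lower (Slc7a8, against 4.63%). At 2-fold, A/J mice kept Slc6a3, against 0.796% of all genes, and C57BL/6J mice kept Slc6a20a and Slc6a3, against 1.02%. No carrier was 2-fold lower on the high-fat diet in A/J mice, where 1.05% of all genes were, or in C57BL/6J mice, where 0.672% were. With 23 carriers, 1 gene more or less moves their share by several percentage points, and nothing particular to the carriers is read from these counts.

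The carriers as a group are described beside all measured genes, without a test of the difference. The median strain effect was 0.07 over the 23 carriers and 0.04 over all 8036 genes, and the median size of the effect, without its sign, was 0.27 against 0.22. For diet, the median size was 0.11 over the carriers and 0.16 over all genes. On 13 of the 23 carriers (56.5%) all 4 arrays lay within 1.5-fold, against 60.3% of all genes. The strains' arrays did not overlap for 14 carriers (60.9%), against 49.1% of all genes, and the diets' arrays did not overlap for 5 (21.7%), against 28.3%. The diet ratios of the 2 strains had the same sign for 12 of the 23 carriers, against 4302 of all 8036 genes. These are similar shares, so nothing particular to the carriers is read from them. The plot of the diet ratios shows Slc6a3 and Slc7a8 near the line of equal response.

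**Figure D4:**
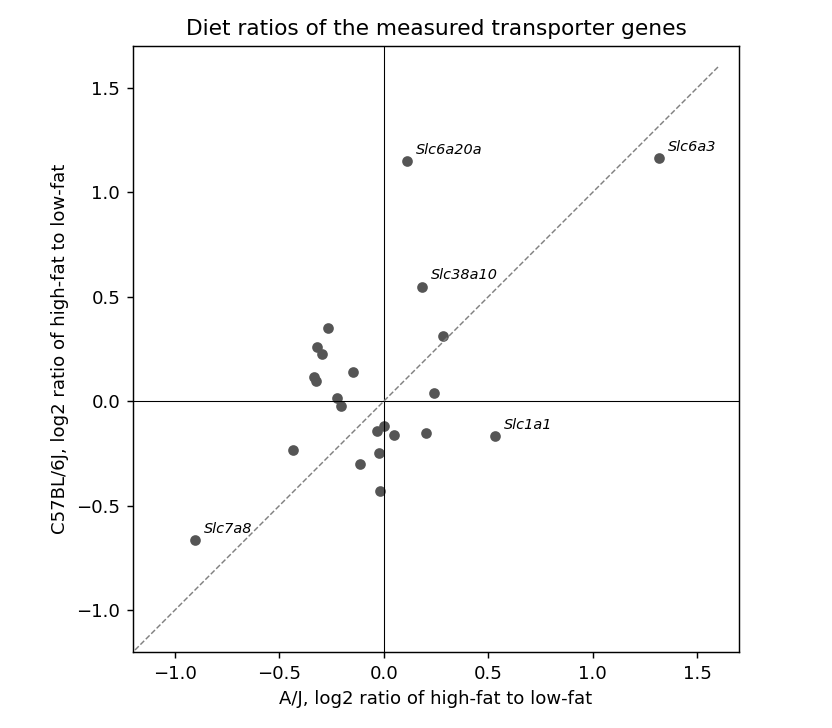
Log2 ratio of high-fat to low-fat signal in C57BL/6J mice (vertical) against A/J mice (horizontal) for the 23 measured carriers, 1 array on each side of a ratio, with the line of equal ratios dashed. Slc6a20a lies far above the line, at 0.11 in A/J mice and 1.15 in C57BL/6J mice, and Slc1a1 lies below it. The C57BL/6J ratio of Slc6a3 and the A/J ratio of Slc43a3 are lower bounds, since the low-fat signal was under the floor.

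Genes that work beside the carriers were read from lists of partners, peptidases, amino acid response genes and enzymes of amino acid breakdown. Of 4 measured partners of the apical carriers, limma called 0 for strain or diet. Anpep, the brush border aminopeptidase that associates with neutral amino acid carriers, had signals of 10404 and 11747 in A/J mice on the high-fat and low-fat diets, against 9221 and 10133 in C57BL/6J mice. Cltrn, which carries such transporters to the membrane in the kidney, was under the floor on all arrays. Slc16a10 was not among the named probe sets.

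Of 14 measured peptidases, limma called 2 higher in A/J mice and 0 lower, beside 3.83% and 3.68% of all measured genes. Xpnpep2, a membrane aminopeptidase that cleaves peptides before proline, had 936 and 985 in A/J mice, against 200 and 276 in C57BL/6J mice, with a limma strain effect of 2.03 ± 0.202 (SE, adjusted p = 6.29e-05). Mep1a, a subunit of the brush border protease meprin, had 3231 and 1853 in A/J mice, against 1628 and 1169 in C57BL/6J mice, with a limma strain effect of 0.83 ± 0.20 (SE, adjusted p = 0.0267). The strains did not overlap for either gene.

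Of 25 measured genes of the amino acid response, which Atf4 drives when amino acids are scarce, limma called 2 higher in A/J mice and 0 lower, beside the same 3.83% and 3.68% of all measured genes. Trib3, a pseudokinase of that response, had 430 and 591 in A/J mice, against 181 and 253 in C57BL/6J mice, with a limma strain effect of 1.24 ± 0.194 (SE, adjusted p = 0.00192). Psph, which makes the last step of serine synthesis, had 174 and 253 in A/J mice, against 101.3 and 128 in C57BL/6J mice, with a limma strain effect of 0.88 ± 0.196 (SE, adjusted p = 0.0172). Other members of the list did not share that direction: Asns, asparagine synthetase, had 443 and 442 in A/J mice, against 702 and 704 in C57BL/6J mice (limma adjusted p = 0.0586). Atf4 itself had 1950 and 1744 in A/J mice, against 1643 and 2873 in C57BL/6J mice, and the median strain effect over the 25 genes was -0.13.

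Of 17 measured enzymes of amino acid breakdown, limma called 1 higher and 1 lower in A/J mice, beside 3.83% and 3.68% of all measured genes, which is no result about the list. Prodh, proline dehydrogenase, which starts the oxidation of proline, was lower in A/J mice, with 215 and 320, against 401 and 788 in C57BL/6J mice, and a limma strain effect of -1.10 ± 0.203 (SE, adjusted p = 0.00544). Hal, histidine ammonia-lyase, had 165 and 185 in A/J mice, against 35.5 and 32.3 in C57BL/6J mice, where it was under the floor on both arrays, and its limma effect of 0.81 on floored values (adjusted p = 0.0269) depends on that floor. Hal passed the filter on mean signal through its A/J arrays alone, so a measured Hal had to differ between the strains and its call is a description. The peptidase, response and breakdown lists held 0 genes called for diet in limma.

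Markers of other cell types and of other stretches of the gut were read on the same arrays. Of 10 measured T cell markers, 3 (Gzma, Gzmb and Ccl5) were lower in A/J mice in limma's fit, beside 3.68% of all measured genes. Summed signals of the 10 were 4621 and 3490 in A/J mice on the high-fat and low-fat diets, against 7446 and 13426 in C57BL/6J mice. Not all T cell markers shared that direction: Itgae had 287 and 341 in A/J mice, against 173 and 250 in C57BL/6J mice. The limma strain effect was 0.25 for Cd3e, and the median over the 10 markers was -0.52. Of 7 ileum and colon markers, 3 were measured and 2 of these were higher in A/J mice, with summed signals of 11263 and 12640 in A/J mice, against 5123 and 5565 in C57BL/6J mice. The 2 were Car4 and Guca2a, and Car4 was also higher on the high-fat diet. The 7 proximal intestine markers summed to 45403 and 46392 in A/J mice, against 45747 and 45026 in C57BL/6J mice, with 0 called for strain or diet in limma. Most of that sum came from Fabp1 and Lct, which are also in the enterocyte list. Cybrd1, a weaker member, was 1.84 times higher in A/J mice on the high-fat diet and 1.11 times on the low-fat diet. Among 12 exocrine pancreas markers, limma called 4 lower in A/J mice (Cpb1, Cela2a, Cela3b and Ctrl), but the A/J high-fat array alone was low: the 12 summed to 2753 on it, and to 105290 in A/J mice on the low-fat diet, against 108482 in C57BL/6J mice on that diet. The 5 measured gastric markers summed to 1286 and 3286 in A/J mice, against 9555 and 1956 in C57BL/6J mice, with 0 called for strain in limma. Single genes were called higher in A/J mice in the lists for Paneth cells (Mptx1), B and plasma cells (Cd79a) and smooth muscle (Des). Single genes were called lower in those for goblet cells (Spink4) and proliferation (Mcm2). Over all measured genes, 3.83% were called higher in A/J mice and 3.68% lower. Des had 262 and 270 in A/J mice, against 28.0 and 69.5 in C57BL/6J mice, both under the floor. Des passed the filter on mean signal through its A/J arrays alone, so its call is a description. Limma called 0 of 10 macrophage and dendritic cell markers and 0 of 6 fibroblast markers. The part of these markers in the strain differences of Slc6a20a, Slc6a4, Slc7a8 and Slc15a1 was not tested.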

How the data were processed

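Total RNA from pooled mucosa was labelled and hybridised to 4 arrays, and per the labels' protocols the authors computed 1 signal intensity per probe set with Microarray Suite at the maker's default settings. The deposited values are these linear intensities, and no scaling to a common target is stated in the sources used here. Of 22690 probe sets, 64 are controls, 20380 name 1 gene, 691 several and 1555 none, and 20351 were matched to RefSeq. Probe sets naming several genes were left out.

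From these values, the mean of the non-control probe sets, trimmed by 2% at each end, was scaled to 500 on each array. Signals under 100 were set to 100, log2 was taken, and a gene's brightest probe set stood for it. The test took in genes whose scaled signal averaged 100 or more. Where either array of a ratio was at the floor, the ratio is a bound. limma 3.58.1 (R 4.3.3) fitted strain and diet over all 8036 measured genes with Benjamini-Hochberg adjustment and a threshold of 0.05. The same fit was run on simulated signals, whose noise was independent and drawn from limma's own fitted variance. That run therefore cannot check the p-values under this design. Pairs of arrays were compared by ratio at 1.5-fold and 2-fold, without a test. With 1 array per group, p-values rest on departures from the additive fit on these arrays, not on replicate arrays or mice. Precision is limited by how few arrays there are. Most of the weight in each SE and p-value came from a variance that limma pooled over all measured genes. That pooled variance held 11.08 degrees of freedom, beside 1 residual degree per gene. An SE printed here is therefore not mainly the gene's own spread. Every measured carrier is named, and of the companion lists the genes called by limma with Anpep, Cltrn, Slc16a10, Asns and Atf4. The carriers and lists were chosen with earlier results of these data known. The marker lists also covered gastric, goblet, Paneth, B and plasma, macrophage, smooth muscle and fibroblast cells and proliferation. Alternatives covered scaling, floor, pseudocount, probe sets, filter, variance trend, a fit of 1 factor and leaving out each array. Proteins were not analysed here.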

Additional observations from a re-analysis of the deposited data

Results flagged for a closer look

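In 6 of the 23 measured carriers the diet ratio was at least 1.1-fold in both strains and ran in opposite directions. Every ratio has 1 array on each side, and none of these differences was tested. The share of all genes past the same limit is not given here, so the count is no result about the carriers. At any size, the signs were alike for 12 of the 23 carriers and for 4302 of all 8036 genes. Slc1a1 had a log2 ratio of high-fat to low-fat of 0.53 in A/J mice and -0.17 in C57BL/6J mice, a difference of 0.70. A second Slc1a1 probe set gave 0.78 in A/J mice and -0.14 in C57BL/6J mice, while the remaining probe set gave 0.25 and 0.09, so its signs were alike. Slc38a3 had -0.26 in A/J mice and 0.35 in C57BL/6J mice, a difference of -0.62. Slc6a6 had -0.32 in A/J mice and 0.26 in C57BL/6J mice, a difference of -0.58. Slc3a2 had -0.30 in A/J mice and 0.23 in C57BL/6J mice, a difference of -0.52. Slc43a3 had 0.20 in A/J mice and -0.15 in C57BL/6J mice, a difference of 0.35, with the A/J low-fat side at the floor. Slc6a9 had -0.14 in A/J mice and 0.14 in C57BL/6J mice, a difference of -0.28, and its second probe set gave 0.11 and 0.29. The median size of the difference was 0.24 over the 23 carriers and 0.28 over all measured genes.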

How the results depend on the processing

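The limma count of 3 carriers higher in A/J became 0 with a floor of 200 and 0 without the filter on signal. In both fits 0 of all genes passed. At an unadjusted p under 0.05 in limma, 2 carriers were higher in A/J with the floor of 200, against 756 of 8036 genes. Without the filter, 3 of 48 carriers were higher at that limit, against 825 of 12393 genes. Many genes then sat at the floor on every array, 15.6% and 28.9% of those tested. The single carrier lower in A/J became 0 under quantile normalization, no scaling, floors of 50 and 200, the mean of all probe sets, without shared probe sets, no filter and the fit of 1 factor. The single carrier higher on the high-fat diet became 0 under the same 8 settings. With each array left out in turn, in fits of 1 factor that assume a lone array varies like the others, each of these limma counts ranged between 0 and 0. Counts of carriers at an unadjusted p are not read from these fits, which leave 1 array on 1 side. Without scaling, the median log2 ratio of all genes, A/J over C57BL/6J, was 0.32 on the high-fat and 0.20 on the low-fat diet, against 0.04 and 0.02 with scaling. The split of all genes then was 596 higher and 141 lower in A/J, against 308 and 296, and Slc38a3 was called for strain at 0.94. Quantile normalization gave 193 and 208, and the other fits gave 68 to 442 higher where any gene passed.

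Counts of carriers by ratio moved as follows. On the high-fat diet 5 carriers were 1.5-fold higher in A/J without scaling, and without the filter 2 were 1.5-fold lower and 1 was 2-fold lower, which adds Slc15a2. On the low-fat diet 0 were 1.5-fold lower in A/J with the mean of all probe sets, and 2 were 2-fold higher with a pseudocount of 50. For diet, a floor of 200 gave 0 carriers 1.5-fold and 0 carriers 2-fold higher in A/J mice, and 1 at either fold in C57BL/6J mice, where no scaling gave 1 at 2-fold. A pseudocount gave 0 carriers 1.5-fold lower in C57BL/6J mice. The median size of the strains' difference in diet ratio was 0.0716 without the filter.

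Signs turned in carriers that were not called. Strain effects turned for Slc15a3 without scaling (0.15) and Slc38a1 under quantile normalization (-0.015). Diet effects turned for Slc38a3 without scaling (-0.053) and with a floor of 200 (-0.13), Slc43a3 without scaling (-0.058) and Slc6a9 with the mean of all probe sets (0.10). With 1 array left out, strain effects ranged for Slc15a3 between -0.24 and 0.083, Slc38a1 -0.030 and 0.089, Slc6a3 -0.44 and 0.88, Slc6a8 -0.040 and 0.16, Slc6a9 -0.0016 and 0.14, and Slc7a7 -0.066 and 0.18. Diet effects ranged for Slc15a1 between -0.59 and 0.37, Slc15a3 -0.26 and 0.032, Slc1a1 -0.22 and 0.58, Slc38a2 -0.31 and 0.10, Slc38a3 -0.46 and 0.55, Slc3a1 -0.30 and 0.038, and Slc3a2 -0.34 and 0.27. They ranged for Slc43a3 between -0.19 and 0.24, Slc6a17 -0.48 and 0.028, Slc6a20a -0.73 and 1.99, Slc6a4 -0.86 and 0.75, Slc6a6 -0.26 and 0.20, and Slc6a9 -0.11 and 0.10. The cause of these changes was not tested. No paired analysis was possible because each group has 1 array and the labels give no number that links arrays. Where an array was under the floor, as for Slc6a3 in C57BL/6J mice and Slc43a3 in A/J mice on the low-fat diet, the ratio that uses it is a bound.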

Other observations

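The other 25 of the 48 carriers had a mean scaled signal under the floor, and 23 of them were under it on all 4 arrays, with 96.6 (Slc7a6) as the highest single value. Slc7a1, the main carrier of cationic amino acids in many cell types, had 111 and 86.7 in A/J mice on the high-fat and low-fat diets, against 94.8 and 81.8 in C57BL/6J mice. Slc15a2, the peptide carrier best known from the kidney, had 44.01 and 19.8 in A/J mice, against 207 and 63.7 in C57BL/6J mice, so the C57BL/6J high-fat array alone passed the floor.

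Slc38a10 had 7 probe sets, of which 6 were measured, and on the low-fat diet the log2 ratio of A/J to C57BL/6J was 0.68, 0.35, 0.22 and at least 1.51 in 4 of them and -0.51 and -0.07 in the other 2. On the high-fat diet the same 6 probe sets were all higher in A/J, with ratios between 0.26 and 0.84.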
